A study of Mus musculus with 24 samples.

Results

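The 44 H3K27ac peaks that carry the gene name Chn1 (25 peaks) or Slc7a14 (19 peaks) were followed along both loci, out of 144154 peaks measured. Both genes were chosen by the measured rise in acetylation at an intronic peak of each after an inhibitor of histone deacetylases, so every drug difference at these peaks is given below as a description without a p-value. Where peaks called for the drug are counted, the same choice entered the counts, and they are no test of the drug effect here. For each gene, the peak with the smallest p for the drug over all libraries is called the lead peak. The behavioural contrasts played no part in that choice and were tested. All 44 peaks passed the filter on low counts, which left 144014 peaks in the table. The smallest count at a Chn1 peak was 3 reads in a library and the smallest at a Slc7a14 peak was 4.

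H3K27ac, the acetylation of lysine 27 of histone H3 at active promoters and enhancers, was measured by low-input ChIP-seq in neuronal nuclei. The nuclei were sorted for NeuN from the dentate gyrus of male C57BL/6J mice aged 12 weeks, about 750000 nuclei per sample; the sample titles call the tissue hippocampus. The 4 groups, named Veh-CFC and Veh-Context for vehicle and HDACi-CFC and HDACi-Context for the drug, had 3 libraries each. HDACi was an intraperitoneal dose of 30 mg/kg CI-994, a blocker of class I histone deacetylases, and Veh was its solvent alone (10% DMSO, 30% Kolliphor and 60% saline), each given 1 h before behaviour. CFC, contextual fear conditioning, was 3 min of exploration and then 2 foot shocks of 0.2 mA lasting 1 s. Context mice spent the same time in that chamber with no shock, and every mouse was killed 1 h afterwards. No group was left without an injection or in its home cage, so all 12 libraries come from injected mice that had been in the chamber. Cage mates all had 1 protocol, whereas the drug was drawn at random, so a shock difference cannot be told apart from a cage difference. The labels do not say whether replicates were single animals or pools, so the tests measure the spread between these libraries.

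Chn1 encodes the chimaerins, proteins that switch off the small GTPase Rac, a driver of actin assembly. Its long form, alpha2-chimaerin, starts at the first promoter and carries an SH2 domain that links it to the EphA4 receptor, through which ephrin signals collapse growth cones and restrain dendritic spines. The short form, alpha1-chimaerin, starts at an inner promoter, lacks the SH2 domain and is a neuronal protein of the adult hippocampus. Slc7a14 encodes a member of the SLC7 family of amino acid transporters that sits in lysosomal membranes and is made mainly in the nervous system. Intronic peaks with H3K27ac are common enhancer candidates, and the mark does not say which gene such a peak serves or whether its transcript changed.

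Chn1 lies on the minus strand of chromosome 2 between 73610660 and 73775367, and Slc7a14 on the minus strand of chromosome 3 between 31202854 and 31310567 (RefSeq, GRCm38.p6; the peaks are in mm10). The distances deposited beside the peaks name 2 Chn1 starts that match RefSeq promoters to the base, the first at 73775346 and the inner one at 73660423, 114.9 kb apart. They also name 1 Slc7a14 start that matches, at 31310319. A further Chn1 start, at 73625740, was named beside 1 peak and had no entry in the promoter table. The 250 bases before each matched start are shown because the promoter peaks and the lead peaks behaved differently below, and because the 3 promoters differ in composition. Capitals mark matches on either strand to the GC box, spelled GGGCGG, to the CCAAT box, whose letters are its name, and to the E-box, spelled CACGTG. No marked match overlaps another.
Chn1 first start, chr2:73775347-73775596, minus strand: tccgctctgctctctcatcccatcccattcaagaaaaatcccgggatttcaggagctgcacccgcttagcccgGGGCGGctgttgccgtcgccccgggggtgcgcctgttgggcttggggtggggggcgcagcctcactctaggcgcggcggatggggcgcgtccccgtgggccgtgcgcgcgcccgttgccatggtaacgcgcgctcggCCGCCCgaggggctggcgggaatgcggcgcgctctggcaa
Chn1 inner start, chr2:73660424-73660673, minus strand: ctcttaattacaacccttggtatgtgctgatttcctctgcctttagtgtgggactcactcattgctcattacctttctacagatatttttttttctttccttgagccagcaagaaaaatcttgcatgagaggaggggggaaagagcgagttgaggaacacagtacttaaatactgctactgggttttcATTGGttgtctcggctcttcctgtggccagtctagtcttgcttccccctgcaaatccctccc
Slc7a14 start, chr3:31310320-31310569, minus strand: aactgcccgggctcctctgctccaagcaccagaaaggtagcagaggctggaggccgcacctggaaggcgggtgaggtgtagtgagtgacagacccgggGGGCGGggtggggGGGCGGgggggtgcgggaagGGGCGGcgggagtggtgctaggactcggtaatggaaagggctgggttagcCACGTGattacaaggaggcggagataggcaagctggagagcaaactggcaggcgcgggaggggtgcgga

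The first Chn1 promoter had 71.6% G and C with 31 CpG dinucleotides and 2 GC boxes. The inner Chn1 promoter had 45.2% G and C, 2 CpG dinucleotides and 1 CCAAT box, so the short transcript starts from a window poor in CpG. The Slc7a14 promoter had 66.8% G and C, 15 CpG dinucleotides, 3 GC boxes and 1 E-box. RefSeq extends Slc7a14 to 31310567, beyond the matched start at 31310319, so this window lies almost wholly inside the annotated gene. Over 32851 RefSeq promoters, the median window of 250 bases held 52.4% G and C and 6 CpG dinucleotides. A GC box stood in 32.7% of them, a CCAAT box in 33.8% and the E-box in 6.02%. The letters of a cAMP response element (TGACGTCA, in 1.55% of promoters), an AP-1 site (TGANTCA, 6.75%) and a TATA box (TATAAA, 12.4%) were searched for on both strands and were in none of the 3 windows. The inner Chn1 window and the Slc7a14 window each lay inside a peak. The first Chn1 window lay in a gap, 15 bp from a peak upstream and 498 bp from the next one downstream.

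Of the 25 Chn1 peaks, 21 were annotated as intronic, 2 as intergenic, 1 as exonic and 1 as promoter. They reached from 47.8 kb upstream to 146 kb downstream of the first start. Of the 19 Slc7a14 peaks, 13 were intronic and 6 intergenic, from 276 kb upstream to 73.4 kb downstream. The deposited chromatin states put 8 peaks of each gene in primed enhancers. A further 10 Chn1 and 9 Slc7a14 peaks were in the state called control, 5 and 2 were active enhancers, and 2 Chn1 peaks were strong promoters. Peaks were 334 to 18343 bp wide at Chn1 and 339 to 19752 bp at Slc7a14. Levels are given in CPM, the counts of a peak per 1000000 reads in all peaks of the library, after scaling between libraries by TMM factors. Per kb of peak, the mean level over 12 libraries was highest at the inner Chn1 promoter (9.58 CPM per kb), at the peak 0.89 kb upstream of the first Chn1 start (7.51) and at the Chn1 intronic peak 81.4 kb downstream (7.50). For Slc7a14 the highest were the intergenic peak 17.0 kb upstream (5.99), the promoter peak (5.04) and the intronic peak 29.8 kb downstream (4.62). The lead peaks had rank 9 of 25 at Chn1, with 3.46 CPM per kb, and rank 6 of 19 at Slc7a14, with 4.01.

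The Chn1 lead peak lay 126 kb downstream of the first start and 11.3 kb downstream of the inner start, in intron 1 of 6 of the short transcript (chromosome 2, 73647793 to 73650380, 2.59 kb, primed enhancer). Its H3K27ac level was 6.87, 6.77 and 5.81 CPM in Veh-Context and 3.34, 6.26 and 6.37 CPM in Veh-CFC. With the drug it was 11.5, 14.0 and 12.9 CPM in HDACi-Context and 10.8, 11.6 and 11.2 CPM in HDACi-CFC. The 6 drug libraries were all above the 6 vehicle libraries, and the lowest value was Veh-CFC replicate 1. The log2 change over both behaviours was 1.03 ± 0.12 (SE, n = 6 drug and 6 vehicle libraries), a 2.04-fold difference. It was 1.06 ± 0.18 in CFC and 0.99 ± 0.16 in Context (n = 3 against 3).

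The inner promoter peak, centred 119 kb downstream (73650698 to 73662433, 11.7 kb), covered the inner start and ended 317 bp before the lead peak began. It held 120, 108 and 118 CPM in Veh-Context and 116, 137 and 153 in Veh-CFC. With the drug it held 80.4, 89.4 and 71.1 in HDACi-Context against 110, 122 and 123 in HDACi-CFC. HDACi-Context was below every other library, while the HDACi-CFC libraries overlapped both vehicle groups. Its drug change was in the opposite direction to that of the lead peak, -0.36 ± 0.08 over both behaviours, -0.20 ± 0.11 in CFC and -0.53 ± 0.11 in Context. A difference in drug change between the inner and the first promoter was not tested. The estimates were smaller in size at the first promoter, which drives the long form. The peak 0.89 kb upstream of it averaged 9.91 ± 1.70 CPM (SD, n = 3) in Veh-Context and 10.0 ± 1.01 in Veh-CFC, against 8.36 ± 0.843 in HDACi-Context and 9.38 ± 0.340 in HDACi-CFC, a drug change of -0.18 ± 0.11. The peak 1.4 kb downstream of the first start changed by 0.10 ± 0.13.

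Beyond the lead peak, the widest Chn1 peak was an active enhancer centred 146 kb downstream, which covers that further start. It held 67.9, 75.7 and 68.1 CPM in Veh-Context and 59.0, 72.6 and 74.5 in Veh-CFC, against 86.3, 91.2 and 82.0 in HDACi-Context and 93.4, 94.1 and 92.9 in HDACi-CFC. All 6 drug libraries were again above all 6 vehicle libraries, with a log2 change of 0.37 ± 0.08. A primed enhancer 3.6 kb upstream of the first start was higher by 0.43 ± 0.11, and the active enhancer 81.4 kb downstream was lower with the drug, at -0.27 ± 0.08. Between both RefSeq starts, in the stretch that only the long transcript covers, 15 peaks lay from 32.8 to 112 kb downstream, 14 of them annotated as intronic and 1 as exonic. Over both behaviours 0 of them were called higher (1 at an unadjusted p under 0.05, and 0 called by DESeq2) and 1 was called lower, with a median drug change of 0.10; of all peaks 3.52% were called higher and 5.81% lower. In Context 1 of the 15 was called higher, a peak 96.8 kb downstream with a log2 change of 1.05 ± 0.28. It held 1.72, 1.18 and 1.32 CPM in Veh-Context against 2.29, 3.30 and 3.33 in HDACi-Context, and 1.67, 2.12 and 1.56 in Veh-CFC against 1.30, 1.56 and 1.51 in HDACi-CFC. The drug libraries were all above the vehicle libraries in Context and overlapped them in CFC. DESeq2 gave this peak no adjusted p, and its call was lost without Veh-Context replicate 3 or HDACi-Context replicate 2 or 3.

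**Figure D1:**
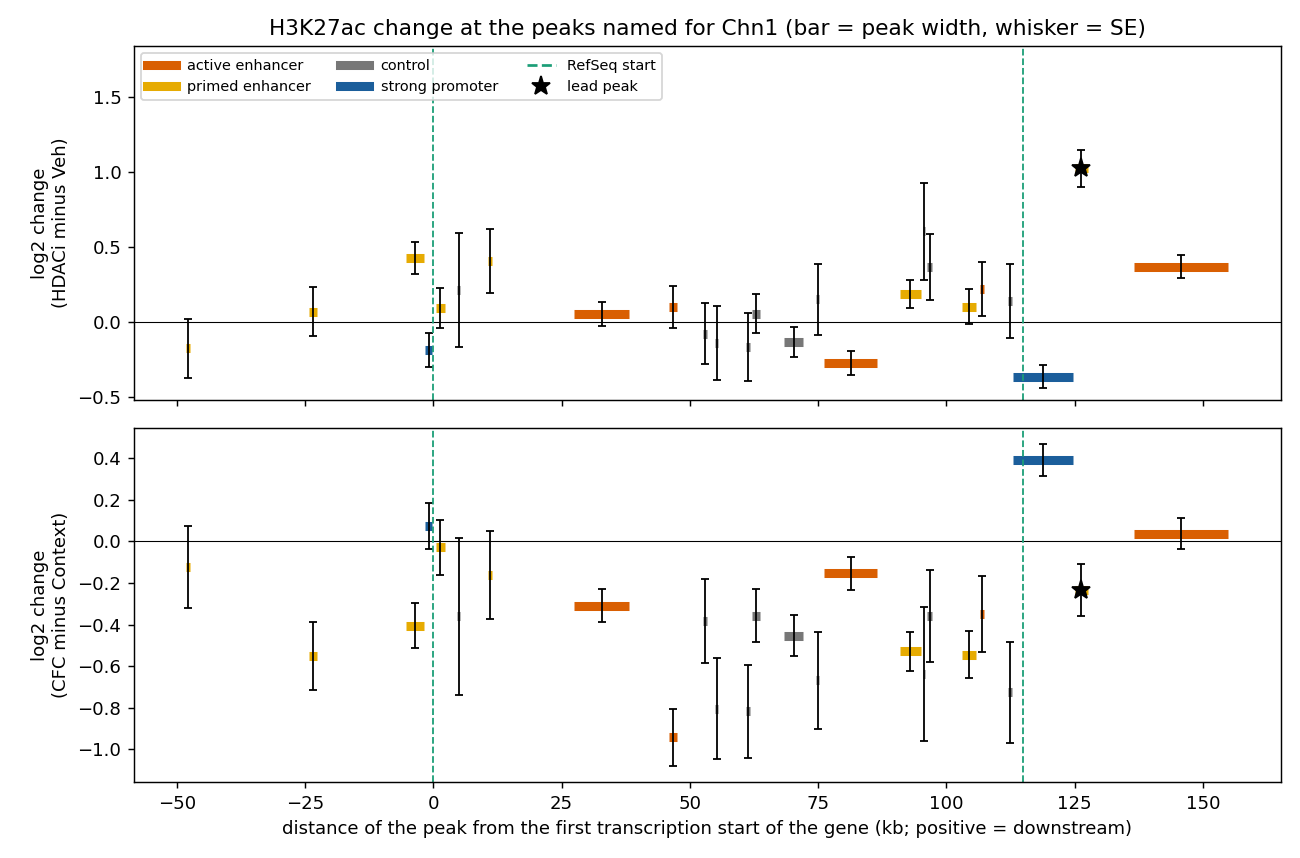
Log2 change in H3K27ac at each of the 25 Chn1 peaks against the distance of its centre from the first start in kb, for HDACi minus Veh (top) and CFC minus Context (bottom); bars span the peak width and are coloured by deposited chromatin state, whiskers are SE, dashed lines are RefSeq starts and the star is the lead peak. The lead peak stands at 1.03 beside the inner promoter at -0.36 in the top panel, and all 15 peaks between the dashed lines and over 20 kb downstream of the first start lie below 0 in the bottom panel.

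At Slc7a14 the drug difference covered a stretch rather than 1 peak. The lead peak lay 12.3 kb downstream of the start in intron 1 of 7 (chromosome 3, 31295214 to 31300739, 5.53 kb, primed enhancer). It held 15.2, 16.0 and 15.1 CPM in Veh-Context and 11.4, 14.1 and 17.0 in Veh-CFC, against 26.4, 37.6 and 30.1 in HDACi-Context and 23.3, 30.5 and 29.2 in HDACi-CFC. Every drug library was above every vehicle library, and Veh-CFC replicate 1 was again the lowest. The log2 change was 1.00 ± 0.10 over both behaviours, a 1.99-fold difference, with 0.96 ± 0.15 in CFC and 1.03 ± 0.14 in Context.

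Moving downstream from the start, the log2 drug change was 0.28 ± 0.08 at the promoter peak centred 3.3 kb downstream and 1.11 ± 0.29 at a narrow peak at 8.9 kb. It was then 1.00 at the lead peak, 0.85 ± 0.10 at 17.8 kb, 0.67 ± 0.10 at 22.6 kb and 0.43 ± 0.09 at 29.8 kb. The 3 peaks from 35.7 to 41.7 kb changed by 0.24 to 0.28, the 19.8 kb wide peak at 53.0 kb by 0.39 ± 0.07, and the last 3 peaks, from 65.1 to 73.4 kb, by 0.15, 0.12 and 0.02. The intergenic peak 17.0 kb upstream of the start changed by -0.01 ± 0.09. The 4 neighbouring peaks from 8.9 to 22.6 kb summed to 38.9 ± 0.287 CPM (SD, n = 3) in Veh-Context and 38.3 ± 5.12 in Veh-CFC, against 72.4 ± 8.34 in HDACi-Context and 67.7 ± 6.54 in HDACi-CFC. The peak at 53.0 kb, in intron 2, held 70.3, 66.8 and 69.1 CPM in Veh-Context and 66.5, 75.8 and 75.9 in Veh-CFC, against 83.6, 91.4 and 94.7 in HDACi-Context and 86.9, 101 and 100 in HDACi-CFC, with no overlap between drug and vehicle.

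**Figure D2:**
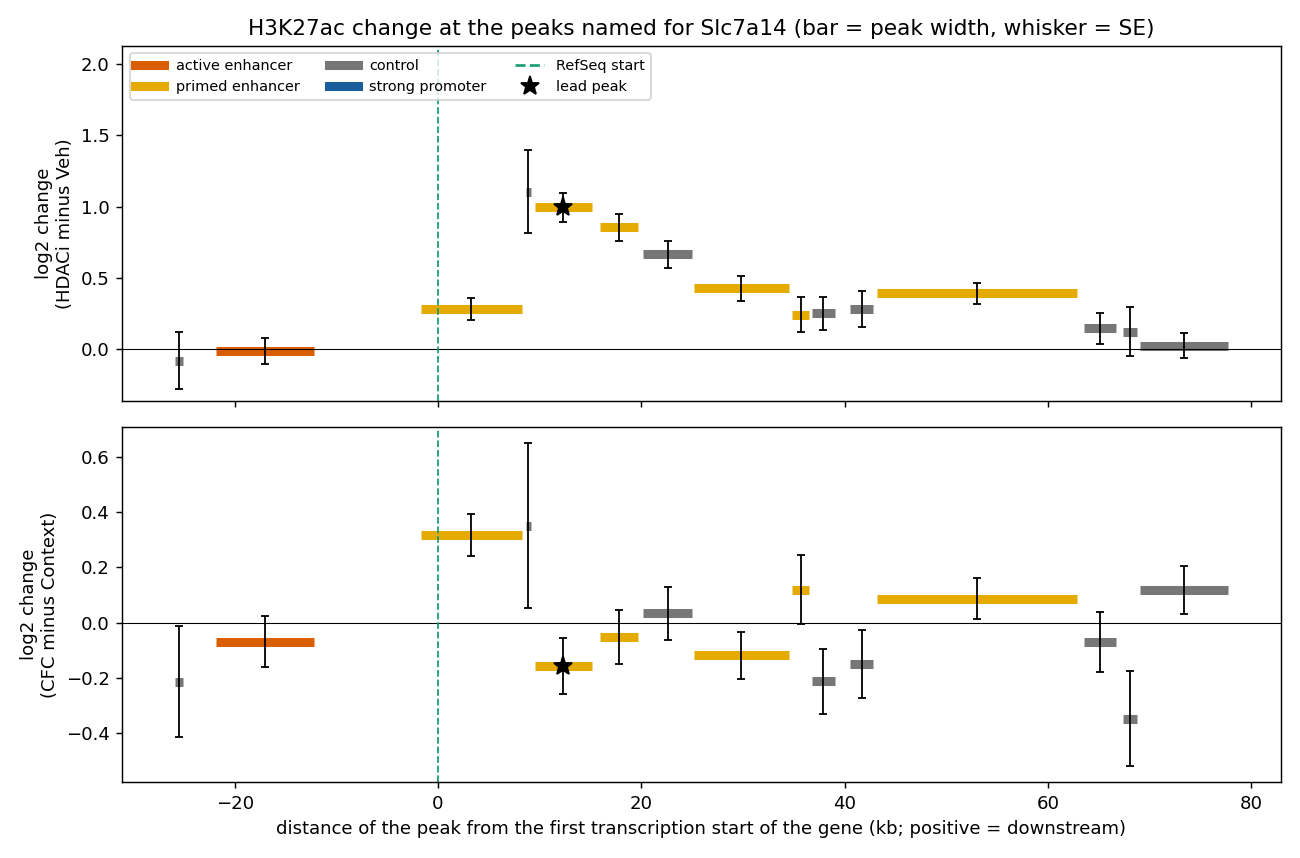
Log2 change in H3K27ac at the Slc7a14 peaks against distance from the start in kb, drawn as for Chn1; the 4 peaks over 100 kb upstream are not drawn. The drug change is near 1 at the lead peak (star), declines to 0.43 at 29.8 kb and is 0.02 at 73.4 kb, while in the bottom panel the promoter peak across the dashed line stands at 0.32.

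A peak was called where edgeR's quasi-likelihood test gave a Benjamini-Hochberg adjusted p under 0.05 over all 144014 peaks. For the drug over both behaviours, 3 of 25 Chn1 peaks were called higher and 2 lower, and 7 of 19 Slc7a14 peaks higher and 0 lower, beside 3.52% of all peaks higher, 5.81% lower and 9.33% in either direction. Since this contrast chose the genes, nothing is read from these counts. Of the Slc7a14 peaks, 0 were lower at an unadjusted p under 0.05 and 0 were called lower by DESeq2. In CFC alone the calls were 2 higher for Chn1 and 4 higher for Slc7a14 (0.483% of all peaks higher, 0.435% lower, 0.918% either). In Context they were 2 higher and 1 lower for Chn1 and 6 higher for Slc7a14 (2.73% higher, 5.85% lower, 8.58% either). The median log2 drug change was 0.10 over the Chn1 peaks and 0.24 over the Slc7a14 peaks, against -0.02 over all peaks. In CFC the calls fell from 6 to 3 without Veh-CFC replicate 2 or without HDACi-CFC replicate 2, and in Context from 9 to 5 without Veh-Context replicate 3 or without HDACi-Context replicate 2. Over all peaks the CFC calls then fell to 0.121% higher and 0.0798% lower, and to 0.153% and 0.14%. The Context calls over all peaks fell to 0.771% higher and 2.44% lower, and to 0.891% and 3.15%. Scaling by library totals alone split all calls in CFC into 608 higher and 890 lower, against 696 and 626 with TMM factors, and a loess scaling into 709 and 1011. In Context the library totals gave 6279 higher and 6537 lower, against 3928 and 8429, and loess gave 5392 and 7353.

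**Figure D3:**
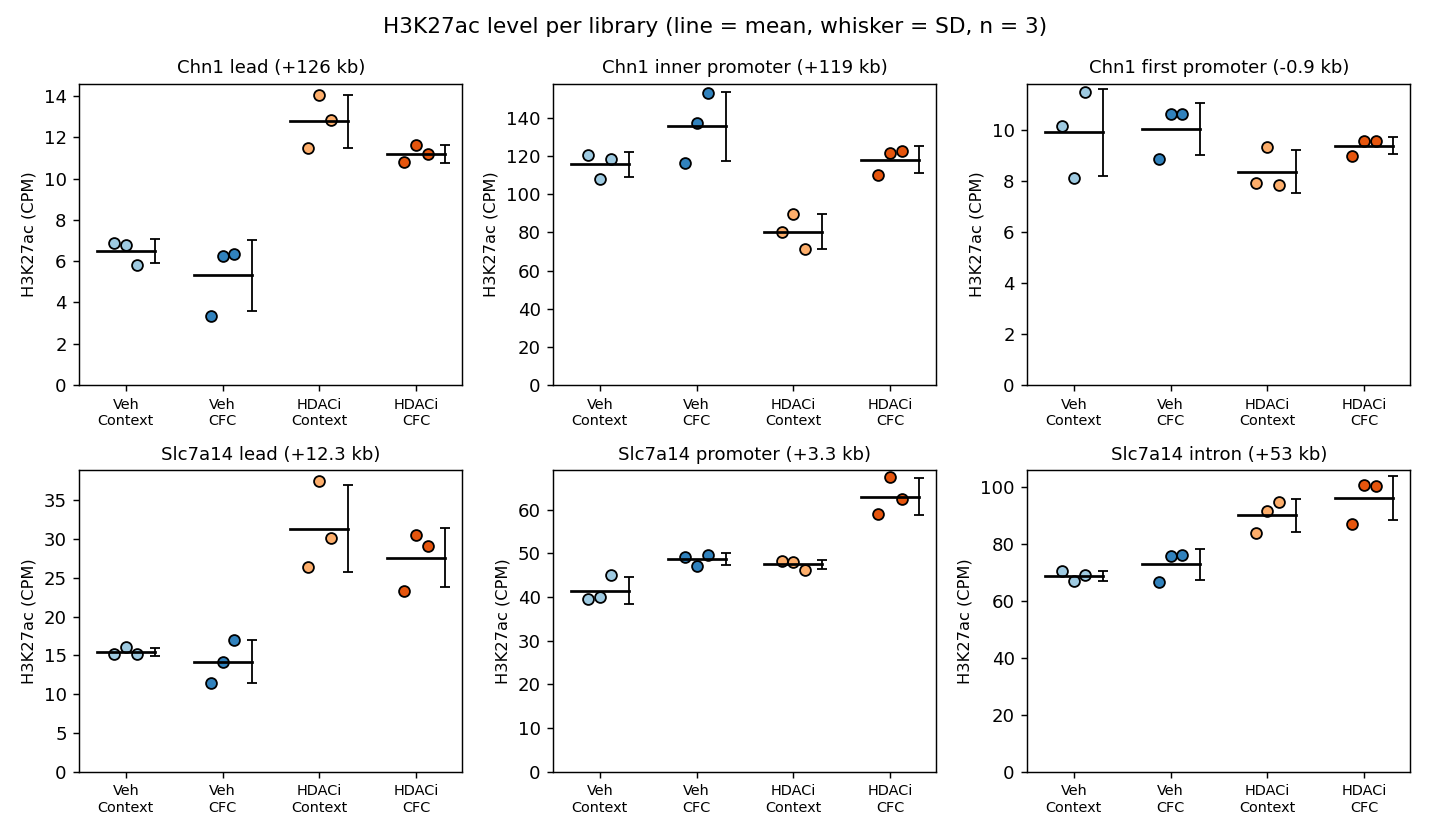
H3K27ac level in CPM (vertical axes, from 0) in each library of the 4 groups at 6 peaks; points are libraries, lines are group means and whiskers are SD (n = 3). Both lead peaks and the Slc7a14 peak at 53.0 kb are higher in every HDACi library than in every Veh library, whereas the inner Chn1 promoter is lowest in HDACi-Context (71.1 to 89.4 CPM).

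Summed over all their peaks, both loci differed in how the drug groups compared. The Chn1 total was 440 ± 40.1 CPM in the 6 vehicle libraries (SD) and 435 ± 21.5 in the 6 drug libraries. The Slc7a14 total was 323 ± 20.3 CPM with vehicle and 405 ± 28.4 with the drug, with no overlap. The Chn1 lead peak held 1.42% ± 0.139 of its locus total in Veh-Context and 1.23% ± 0.272 in Veh-CFC, against 2.91% ± 0.149 in HDACi-Context and 2.60% ± 0.0673 in HDACi-CFC (each SD, n = 3). The Slc7a14 lead peak held 4.82% ± 0.308, 4.35% ± 0.552, 7.72% ± 0.795 and 6.78% ± 0.471 of its total in the same order.

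Conditioning had another profile along the same loci. Over both drug conditions, 12 Chn1 peaks fell after conditioning and 1, the inner promoter, rose. At Slc7a14, 2 distant intergenic peaks fell and the promoter peak rose. The other 12 Chn1 and 16 Slc7a14 peaks, both lead peaks among them, were not called. Of all peaks, 19.7% were called lower, 21.4% higher and 41.1% either, so the 12 of 25 lower calls at Chn1 (48.0%) stood above the background share and the 2 of 19 at Slc7a14 (10.5%) below it. With library totals 14 Chn1 and 7 Slc7a14 peaks were lower (56% and 36.8%, beside 26.4% of all peaks), and with loess 16 and 6 (64% and 31.6%, beside 19.9%), so the Slc7a14 share turned from below the background to above it with the scaling. Peaks of 1 locus are not independent, and the difference between the genes was not tested. The median shock change was -0.36 at Chn1, -0.12 at Slc7a14 and -0.03 over all peaks. Among intronic peaks of all genes the lower share rose with distance from the named start. It was 2.25% within 2.5 kb and 23.2% at 50 to 100 kb, where 11.3% were higher and the median was -0.14. The part of this trend in the Chn1 share was not tested.

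All 15 Chn1 peaks between the starts and beyond 20 kb had a shock change below 0, with a median of -0.53, and 10 of them were called lower; this stretch was picked out after its values were seen. The deepest fall there was at the active enhancer 46.7 kb downstream. It held 7.09, 7.51 and 5.73 CPM in Veh-Context and 7.79, 7.48 and 7.48 in HDACi-Context, against 3.08, 3.82 and 4.11 in Veh-CFC and 3.40, 3.33 and 4.45 in HDACi-CFC. All 6 CFC libraries were below all 6 Context libraries, and the log2 change was -0.94 ± 0.14 (adjusted p = 7.00e-07). The primed enhancer 93.0 kb downstream fell by 0.53 on the log2 scale (SE 0.09, adjusted p = 1.71e-05), from 17.8 to 22.1 CPM in the Context libraries to 12.1 to 15.7 in the CFC libraries. The active enhancer 32.8 kb downstream, 10.6 kb wide, fell by 0.31 (SE 0.08, adjusted p = 0.00171), from 56.0 to 67.3 CPM down to 40.3 to 53.9. In 6 Chn1 peaks every CFC library lay below every Context library, beside 4.50% of all peaks with that order. The other Chn1 peaks called lower were at 55.2, 61.3, 62.9, 70.3, 74.9, 104 and 112 kb downstream and at 3.6 and 23.5 kb upstream, with log2 changes from -0.36 to -0.82. The calls at 62.9 and 74.9 kb were lost in DESeq2 (adjusted p = 0.0584 and 0.0558). The call at 112 kb was lost without Veh-CFC replicate 2 (adjusted p = 0.0530) and that at 55.2 kb without Veh-Context replicate 3 (0.0678). The call at 74.9 kb was lost without Veh-CFC replicate 2 or HDACi-Context replicate 2 (adjusted p = 0.0772 and 0.0679). At 62.9 kb it was lost without Veh-Context replicate 1, Veh-CFC replicate 1, HDACi-Context replicate 3 or HDACi-CFC replicate 2 (adjusted p from 0.0532 to 0.107).

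The inner Chn1 promoter rose by 0.39 ± 0.08 over both drug conditions (adjusted p = 7.42e-05), 0.23 ± 0.11 with vehicle (adjusted p = 0.189) and 0.56 ± 0.11 with the drug (adjusted p = 8.83e-05). The 2 peaks that flank the first promoter changed by 0.08 ± 0.11 and -0.03 ± 0.13 and were not called. The Slc7a14 promoter peak (chromosome 3, 31302098 to 31312033) held 39.4, 40.0 and 44.9 CPM in Veh-Context and 49.2, 47.2 and 49.7 in Veh-CFC. With the drug it held 48.1, 48.0 and 46.1 in HDACi-Context against 59.0, 67.5 and 62.3 in HDACi-CFC. Within vehicle and within drug, the CFC libraries were all above the Context libraries. It rose by 0.32 ± 0.08 (adjusted p = 0.000934), 0.23 ± 0.11 with vehicle and 0.41 ± 0.11 with the drug (adjusted p = 0.195 and 0.00239). Both promoter rises depended on the scaling. With loess offsets, which remove a trend with abundance in each library, the shock change was 0.10 at the inner Chn1 promoter (adjusted p = 0.180) and 0.14 at the Slc7a14 promoter (adjusted p = 0.0834). Under loess 0 member peaks were called higher and 22 lower, against 2 and 14 with TMM. Of all peaks, loess called 19.5% higher and 19.9% lower. Promoter peaks held 24.9% to 26.7% of the reads in the CFC libraries and 18.3% to 22.5% in the Context libraries; the part of this gap in the promoter changes was not tested. The 2 Slc7a14 peaks that fell were 158 kb upstream (-0.63 ± 0.19, adjusted p = 0.00584) and 276 kb upstream (-0.72 ± 0.21, adjusted p = 0.00572).

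The lead peaks themselves were not called by shock. The change was -0.23 ± 0.12 at Chn1 (adjusted p = 0.129) and -0.16 ± 0.10 at Slc7a14 (adjusted p = 0.212), and scaling by library totals, which moved the median shock change of all peaks from -0.03 to -0.11, took both past the threshold (-0.32, adjusted p = 0.0341, and -0.24, adjusted p = 0.0404). That scaling split all shock calls into 25908 higher and 38010 lower, against 30813 and 28330.

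In vehicle mice alone, 3 Chn1 peaks fell, at 93.0, 46.7 and 32.8 kb, and 0 Slc7a14 peaks were called (4.41% of all peaks higher, 2.74% lower, 7.15% either). Without Veh-Context replicate 1, or without Veh-CFC replicate 1, none of those 3 calls remained; over all peaks the calls then fell to 0.873% higher and 0.442% lower, and to 0.766% and 0.243%. At an unadjusted p under 0.05, 1 Slc7a14 peak was higher in these mice and 0 were lower, and DESeq2 called 0. In drug-treated mice, 12 Chn1 peaks fell and 1 rose, and 2 Slc7a14 peaks fell and 1 rose (20.2% higher, 17.8% lower, 37.9% either). With library totals 15 Chn1 and 8 Slc7a14 peaks fell in these mice (60% and 42.1%, beside 26.3% of all peaks). All calls then split into 23366 higher and 37912 lower against 29069 and 25571. With loess 16 Chn1 and 6 Slc7a14 peaks fell (64% and 31.6%, beside 18% of all peaks) and 0 rose (18.4% of all peaks). The 12 Chn1 peaks lower in drug-treated mice included those at 5.0, 53.0 and 96.8 kb, with -1.42 ± 0.49, -0.91 ± 0.27 and -1.04 ± 0.28 (adjusted p = 0.0187, 0.00744 and 0.00332), which were not called over both drug conditions. The call at 5.0 kb was lost without HDACi-Context replicate 1 or 2 or HDACi-CFC replicate 1 or 2 (adjusted p from 0.0576 to 0.0761). In drug-treated mice the calls at 112 kb downstream and 3.6 kb upstream of the Chn1 start were lost without HDACi-Context replicate 2 (adjusted p = 0.0531 and 0.143), the first also without HDACi-CFC replicate 3 (0.0776) and the second without HDACi-CFC replicate 1 (0.129) and in DESeq2 (0.0622). The call 276 kb upstream of Slc7a14 was lost without HDACi-Context replicate 2 or 3 or HDACi-CFC replicate 3 (adjusted p from 0.0563 to 0.0799). Fewer calls in vehicle than in drug-treated mice held over all peaks as well, and the direct test of the difference between the shock effects called 0 of the 44 peaks (0.034% of all peaks higher, 0.000694% lower, 0.0347% either). Over all peaks that share depended on single libraries and the tool: 0 peaks were called without Veh-Context replicate 3, 2.41% higher and 0.176% lower without HDACi-Context replicate 1, 1.64% and 0.156% without Veh-CFC replicate 1, 0.579% and 0.0277% without Veh-Context replicate 1, and DESeq2 called 871 higher and 2 lower. Of the 44 peaks, 1 was higher and 6 were lower in edgeR's test of the difference at an unadjusted p under 0.05. DESeq2 called 0 of the 44, but it gave an adjusted p to only 21182 peaks, and the others counted as not called. Of those 21182 peaks, DESeq2 called 4.11% higher and 0.00944% lower. The interaction at the lead peaks was 0.08 ± 0.25 for Chn1 and -0.07 ± 0.20 for Slc7a14. The Chn1 interaction includes its drug effect in CFC, which was among the values that chose the gene.

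Totals over a locus overlapped between the behaviours. The Chn1 total was 428 ± 36.4 CPM in CFC and 447 ± 22.8 in Context (SD, n = 6; exact permutation test, two-sided, p = 0.299, adjusted over 4 locus tests 0.759). The Slc7a14 total was 365 ± 52.5 and 363 ± 50.4 CPM (exact permutation p = 0.935, adjusted 0.935). With library totals alone the difference was -45.2 CPM at Chn1 (exact permutation test, adjusted p = 0.0433) and turned to -20.0 CPM at Slc7a14. The lead peak's share of its locus was lower by 0.251 percentage points in CFC at Chn1, at 1.91% against 2.17%, and lower by 0.705 points at Slc7a14, at 5.56% against 6.27% (exact permutation p = 0.569 and 0.442, both adjusted 0.759). When labels were exchanged only within vehicle and within drug, an option added after the data were seen, the shares gave exact permutation p = 0.035 and 0.045, adjusted 0.09 for both.

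Ratios between 2 peaks of 1 gene in 1 library do not depend on how libraries are scaled to each other as a whole, and 3 were added after the data were seen. The inner Chn1 promoter stood at a log2 ratio of 3.70 ± 0.0779 over the peak upstream of the first promoter in CFC and 3.41 ± 0.206 in Context (SD, n = 6), a difference of 0.29 that was 0.19 with vehicle and 0.39 with the drug. The Chn1 lead peak over the inner promoter was at -4.72 in Veh-CFC and -4.16 in Veh-Context, and at -3.40 in HDACi-CFC and -2.65 in HDACi-Context. CFC was lower by 0.56 with vehicle and 0.75 with the drug, with no overlap between CFC and Context libraries on either background. The Slc7a14 lead peak over its promoter was lower in CFC by 0.38 with vehicle and 0.58 with the drug. Exchanging labels within vehicle and within drug, which allows 400 arrangements and no p below 0.005, gave exact permutation p = 0.015, 0.005 and 0.01, each 0.015 after adjustment over the 3 ratios. Exchanging them over all 12 libraries gave exact permutation p = 0.0173, 0.173 and 0.0887, adjusted 0.0519, 0.173 and 0.133. Each ratio pairs 1 of the 2 promoter peaks called higher after conditioning with a peak that was not called. That choice set the direction of each difference, so neither set of p-values is an independent test of it. The adjustment over the 3 ratios does not cover the choice. Because promoter peaks are the more abundant member of these pairs, a trend with abundance such as the one loess removes would also enter the ratios; its part was not tested.

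**Figure D4:**
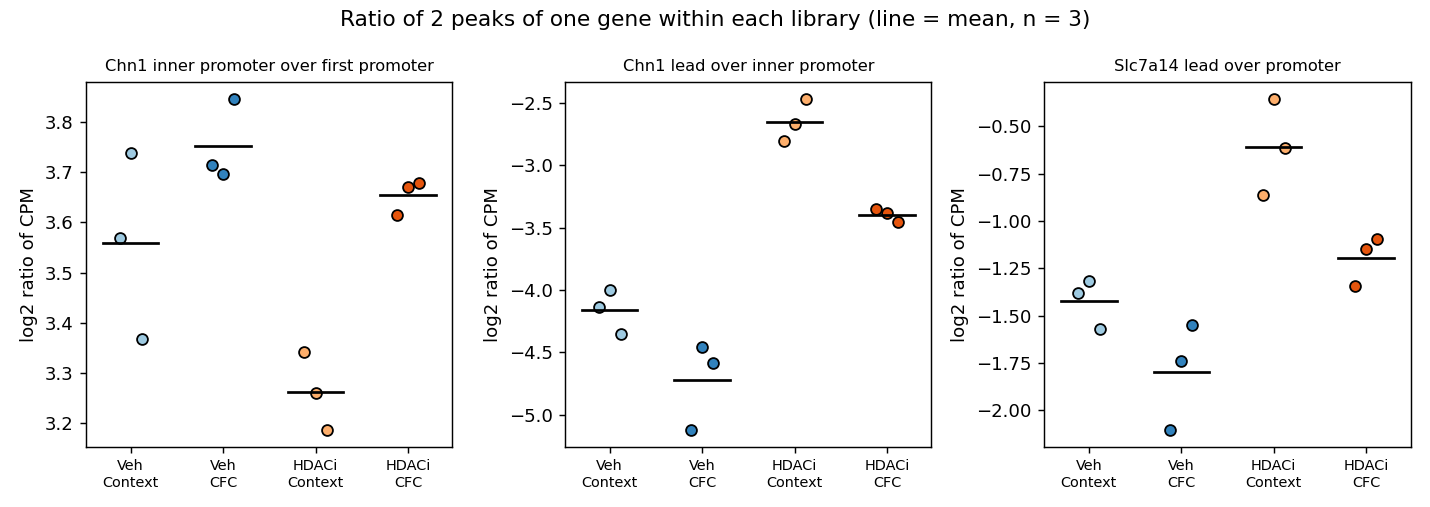
Log2 ratio of CPM between 2 peaks of the same gene (vertical axes, not from 0) in each library of the 4 groups; points are libraries and lines are group means (n = 3). The lead-to-promoter ratio is lower in CFC than in Context within both drug conditions at both genes, for Chn1 at -4.72 against -4.16 with vehicle and -3.40 against -2.65 with the drug.

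Both lead peaks, which were chosen as intronic, are primed enhancers in the first intron of a transcript, 11.3 and 12.3 kb downstream of a start. Such a position was common: 5301 intronic peaks lay 10 to 15 kb from their named start, of which 5.32% were called higher with the drug and 8 reached a log2 change of 0.9. Intronic primed enhancers over the genome were called higher with the drug in 7.97% of 23169 cases and lower in 0.993%, whereas intronic strong promoters were higher in 0.898% of 6569 and lower in 20.2%. Across 12 libraries the lead peaks correlated at r = 0.959 with each other, a description that includes the drug difference both were chosen for. Many peaks of other genes were closer: counting each lead itself as first, the other lead had rank 46 by r for Chn1 and rank 40 for Slc7a14. The 5 nearest to the Chn1 lead were in introns of Scn2a (a voltage-gated sodium channel, r = 0.985), Rock2 (a kinase that acts on the actin skeleton, 0.980) and Galnt17 (a glycosyltransferase, 0.977) and 2 peaks named for Mir1903 (0.982 and 0.975). Among the 5 nearest to the Slc7a14 lead were peaks in Scn2a (0.981), Rock2 (0.978), Gria2 (an AMPA receptor subunit, 0.977) and Arhgap20 (a GTPase-activating protein, 0.975). The peaks named here were intronic primed enhancers, with drug changes from 0.52 to 0.88. Ranking by Spearman's correlation kept 0 of the 5 for Chn1 and 2 of the 5 for Slc7a14.

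Among the peaks of 1 gene, those with a higher level per kb had a less negative shock change (Spearman's correlation 0.58 over 25 Chn1 peaks and 0.47 over 19 Slc7a14 peaks). The level per kb and the drug change had a Spearman correlation of -0.38 at Chn1 and 0.24 at Slc7a14. The drug change in CFC and that in Context had a Spearman correlation of -0.09 over the Chn1 peaks and 0.59 over the Slc7a14 peaks. These are descriptions, since peaks of a locus share libraries and depth.

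Other genes of the chimaerin, EphA4 and Rac pathway were read at the peak over or beside their start, called the promoter peak whatever its chromatin state, which 40 of 43 listed genes had. With the drug over both behaviours, 4 promoters rose and 8 fell, with a median log2 change of -0.03, beside 2.67% higher, 24.9% lower and a median of -0.20 over all gene promoters. Those that rose were at Nckap1, Abi1 and Abi2 (0.35, 0.34 and 0.36), subunits of the WAVE complex that builds actin downstream of Rac, and at the adaptor Baiap2 (0.27). The WAVE subunits Cyfip1 and Cyfip2 were not called (-0.11 and -0.01). Of the 4 that rose, 3 carried the primed enhancer state and 1 the active enhancer state, while 5 of the 8 that fell were strong promoters. Those that fell included Wasf1, a WAVE subunit (-0.61 ± 0.10, adjusted p = 1.48e-05), the adaptor Nck1 (-0.76 ± 0.14), the Rac effector kinase Pak1 (-0.52 ± 0.10) and the Rac activator Tiam2 (-0.42 ± 0.09), and also the paralog Chn2 (-0.77 ± 0.16). Wasf1, like Chn1, had peaks of opposite direction, with 2 primed enhancers higher by 0.57 and 0.56. Over all 857 peaks of the list, 60 rose and 23 fell (7% and 2.68%, beside 3.52% and 5.81% of all peaks). These included an active enhancer of Ephb2, a receptor for ephrin-B ligands (0.97), and a peak of Rac1 itself in the strong promoter state (-1.03). The Rac1 promoter peak counted among the 40, another peak in the strong promoter state, was not called (0.21). Loess and library totals each left 4 promoters higher and 7 lower, and DESeq2 3 and 7. After conditioning 26 of the 40 promoters rose and 1 fell, that of Dock10, a Rac and Cdc42 activator, with a median of 0.41 beside 52.4% higher, 3.19% lower and 0.35 over all gene promoters. With library totals 23 rose and 3 fell, and with loess 26 and 3. Examples were Baiap2 (0.83 ± 0.09, adjusted p = 5.83e-09) and Chn2 (0.96 ± 0.16, adjusted p = 8.83e-06), with 0.51 and 1.02 under loess.

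Of 16 other SLC7 transporters and partner chains, 9 had a promoter peak. With the drug 0 rose and 1 fell, Slc7a7 (-1.55 ± 0.40, adjusted p = 0.00763), beside 2.67% higher and 24.9% lower over all gene promoters. At an unadjusted p under 0.05, 1 was higher and 3 were lower. DESeq2 gave no adjusted p for Slc7a7 and called 1 higher, that of the partner chain Slc3a2 (0.23, adjusted p = 0.0479), as did loess and library totals. After conditioning 7 rose and 0 fell, beside 52.4% higher and 3.19% lower over all gene promoters. The counts were the same at an unadjusted p under 0.05 and by DESeq2. Under loess 5 rose and with library totals 6, beside 7258 and 6433 of all 14155 gene promoters. Among the 7 that rose, chosen after their values were seen, were the neutral amino acid transporter Slc7a5 (0.72 ± 0.14, adjusted p = 0.000108) and the cationic transporter Slc7a1 (1.38 ± 0.28, adjusted p = 0.000113). Away from promoters, a primed enhancer of Slc7a1 rose with the drug by 0.73 ± 0.17 (adjusted p = 0.00295).

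Within 500 kb of the lead peaks, no neighbouring gene's peak had a drug change as large as the leads. The leads were chosen for that change, so nothing is read from this comparison. Around Chn1, 3 of 72 peaks of 11 other genes rose and 3 fell (4.17% each way, beside 3.52% higher and 5.81% lower of all peaks), with changes from -0.68 to 0.55. The 3 that fell were promoters, of Atp5g3 (-0.68 ± 0.12), Chn1os3 (-0.30 ± 0.07) and Scrn3 (-0.41 ± 0.10). The Chn1os3 peak is 39.4 kb wide and runs over the 3' end of Chn1, where the antisense gene and Chn1 overlap, so its reads could not be assigned to either gene. It rose after conditioning by 0.40 ± 0.07 (adjusted p = 1.30e-05), but stood at -0.04 under loess (adjusted p = 0.502), and it was not counted as a Chn1 peak. Around Slc7a14, 3 of 37 peaks rose and 2 fell (8.11% and 5.41%). The risen ones were 2 primed enhancers of Skil, a repressor of TGF-beta signalling (0.61 ± 0.10 and 0.33 ± 0.10), and 1 named for Mir7008 (0.52 ± 0.10).

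Reads in peaks ranged from 6639158 to 16734757 per library, and no 2 libraries of a group agreed within sampling noise. The labelled cell type was checked at promoters of marker genes. All 9 dentate granule neuron markers had a promoter peak, at a mean of 40.5 to 59.6 CPM per gene over the groups, and 2 fell with the drug. Oligodendrocyte markers summed to 85.5 to 93.6 CPM in HDACi-Context, 109 to 126 in Veh-Context, 147 to 174 in Veh-CFC and 141 to 164 in HDACi-CFC over 6 of 6 genes, of which 1 fell with the drug. Microglial markers, with a peak at 4 of 5 genes and none named for C1qa, summed to 22.7 to 41.1 CPM, and 2 fell with the drug. Of all gene promoters 24.9% fell. Acetylation from fewer cells of a type and less acetylation per cell cannot be told apart in these bulk libraries, and the part of the glial signal in the results above was not tested.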

How the data were processed

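H3K27ac reads had been counted by the authors over 1 set of peaks, and the deposited table holds whole-number counts per peak and library beside position, gene, distance and chromatin state. Without giving roles, the submitters' processing notes list HOMER 4.11, DESeq2 1.28.1, DiffBind 2.16.2, MACS2, SAMtools 1.9, Bowtie2 2.3.5, Trimmomatic 0.38 and the build mm10. The deposited percent of chromatin-state overlap and the 12 input libraries were not analysed here. The count columns name no antibody and were taken as the H3K27ac libraries. The series text speaks of other numbers of treatments and replicates than the sample labels, which were followed.

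Counts were fitted in R 4.3.3 with edgeR 4.0.16 (TMM factors, filterByExpr with a minimum count of 10, robust quasi-likelihood, 1 term per group, 12 libraries), and p-values were adjusted over all 144014 peaks left. The filter removed 140, and the median biological coefficient of variation was 0.131. Levels are counts per 1000000 reads in peaks (CPM) with TMM-scaled totals, and correlations used log2 CPM with a prior count of 2. On simulated counts over 143516 peaks with the drug contrast, 100 of 100 peaks changed by 1 and 100 of 100 changed by 1.5 (log2) were recovered with 5 false calls. The changed peaks were drawn from well-covered ones, all peaks had the same spread, and no behavioural effect was simulated. Recovery of smaller changes, or at peaks with few reads, was not tested. Alternatives were library totals, DESeq2 size factors, DESeq2 1.42.0, loess offsets (limma 3.58.1), no filter, subsets of libraries and a replicate block.

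Named in full were the lead peak, promoter peaks (edge within 1000 bp of the start), the 3 peaks of each gene with the highest CPM per kb and peaks called in a behavioural contrast; up to 4 genes per list and direction by the smallest drug p; and the 5 peaks most correlated with each lead, of which 1 is not reported here. Members, lists and rules were chosen with earlier results of these data known.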

Additional observations from a re-analysis of the deposited data

Results flagged for a closer look

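At the Slc7a14 peak 65.1 kb downstream of the start, the CFC libraries lay on opposite sides of the Context libraries with vehicle and with the drug, though neither difference was called (0.20 with vehicle, adjusted p = 0.477, and -0.34 with the drug, adjusted p = 0.0597, edgeR). It held 8.06, 8.54 and 9.33 CPM in Veh-Context and 10.8, 9.65 and 9.34 CPM in Veh-CFC, so every vehicle CFC library was above every vehicle Context library, as for 12.6% of all peaks. It held 11.1, 12.2 and 11.3 CPM in HDACi-Context and 9.35, 10.3 and 7.81 CPM in HDACi-CFC, so every drug CFC library was below every drug Context library, as for 24.7% of all peaks. The conditioning effect in the drug minus that in vehicle was -0.54 on the log2 scale, and edgeR's quasi-likelihood test of this difference did not pass over all peaks (adjusted p = 0.317, unadjusted p = 0.0171).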

How the results depend on the processing

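Counts of called Chn1 and Slc7a14 peaks were 12, 6 and 9 for the drug (both behaviours, CFC, Context), 16, 3 and 16 for conditioning (both drugs, vehicle, drug) and 0 for the interaction. With loess the Context count was 14, and with library totals the conditioning count in drug-treated mice was 25. Leaving out 1 library in turn gave 10 to 12, 3 to 6, 5 to 12, 14 to 19, 0 to 3, 12 to 19 and 0, in the same order. DESeq2 gave 11, 8, 8, 14, 3, 15 and 0. It gave an adjusted p to 96642, 49130, 91052, 144154, 91052, 144154 and 21182 peaks in that order. A peak without an adjusted p counted as not called. The Chn1 peak 146 kb downstream, not called for conditioning, turned to -0.21 under loess over both drugs and to -0.27 in drug-treated mice. With library totals the conditioning difference of the locus total was -45.2 CPM at Chn1 (adjusted p = 0.0433) and -20.0 CPM at Slc7a14. With TMM factors and all libraries that difference was -19.7 CPM at Chn1 and 2.60 CPM at Slc7a14. Leaving out 1 library at a time with TMM factors gave -27.99 to -6.61 CPM at Chn1. At Slc7a14 it gave -10.9 to 17.8 CPM, below 0 in 5 cases (-4.92, -7.88, -4.34, -10.9 and -6.92). The lead share then differed by -0.431 to -0.0526 points at Chn1 and -1.03 to -0.233 at Slc7a14. The cause was not tested. At the Slc7a14 lead peak the conditioning change in drug-treated mice passed the threshold with library totals (-0.32, adjusted p = 0.0359) and loess (-0.31, adjusted p = 0.0339).

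Counting all peaks in place of 1 promoter peak per gene gave, for the drug and conditioning, 83 and 319 calls in the chimaerin list, 3 and 43 in the SLC7 list, 6 and 31 around Chn1 and 5 and 12 around Slc7a14; more peaks were counted by construction.

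With the replicate number as a block, the counts were 12, 6, 10, 16, 3, 16 and 0, and the block changed the side of the threshold for 0 of 96 named values. The 10 drug calls in Context included all 9 found without the block. The added call, a lower one, was at a peak outside the named values. Same-numbered libraries deviated from their group means with r from -0.28 to 0.35 over 18 pairs. Of these pairs 2 were over 0.1, and 6 of 12 libraries correlated best with their own number. The labels do not say what the number stands for, and a batch shared by same-numbered libraries was not tested.

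At narrow peaks, where single libraries held as few as 3 reads, the standard errors were several times those of wide peaks, and local background was not subtracted.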
